A study of Mus musculus with 6 samples.

Results

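The genes described here are 33 genes of the unfolded protein response and of the integrated stress response. They were chosen by name, with earlier results of these data known. They are endoplasmic reticulum (ER) chaperones, factors of ER-associated degradation (ERAD), stress sensors with their transcription factors, and downstream targets. All 33 were found among the 56691 genes of the table, and 31 of them passed the filter of a mean of at least 1 FPKM (reads scaled to exon length and to the library total) together with 10866 genes in all. *Chac1* and *Asns* did not. Their RNA was measured by poly(A) RNA-seq in livers of pregnant mice. The KPF group held 3 female h*Chrebp* KO dams (replicates 1 to 3), which carry *Chrebp* flox/flox and 1 copy of the Alb-Cre transgene, so that *Mlxipl*, the gene of the carbohydrate-responsive transcription factor ChREBP, is cut only where the albumin promoter is active. The WPF group held 3 female *Chrebp* flox/flox dams without Cre (replicates 2 to 4). The sample labels call the WPF dams wild type. All 6 dams had been mated with *Chrebp* flox/flox males and received HFrD, a diet with 70% fructose, from Day 0, and were sacrificed on Day 17 of pregnancy. Neither the age of these dams nor the hour of liver collection is given in the sources used here.

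The lumen of the ER is where secreted and membrane proteins fold, a heavy load in hepatocytes, which make most plasma proteins. When unfolded protein accumulates, 3 sensors in the ER membrane respond: IRE1 (*Ern1*) splices the mRNA of *Xbp1*, ATF6 (*Atf6*) is cleaved to release a transcription factor, and PERK (*Eif2ak3*) phosphorylates the initiation factor eIF2, which lowers general translation and favours translation of *Atf4*. ATF6 and spliced XBP1 act on genes of chaperones and ERAD, and ATF4 on genes of amino acid supply and on *Ddit3*, which encodes CHOP. Much of this signalling runs through splicing, cleavage, phosphorylation and translation, none of which a count of reads per gene records.

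A known landmark of chaperone promoters is the ER stress element (ERSE), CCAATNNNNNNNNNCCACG, in which the first 5 letters are a CCAAT box and the last 5 are the part bound by ATF6 or XBP1. It was searched on both strands in the 250 bases before the start of transcription in the RefSeq promoters of GRCm38.p6. Of the 33 members, 29 had an entry. ERSE was in 9 of these 29 members and in 0.113% of all 32851 promoters. The 10 sites, of which *Hsp90b1* has 2, are shown because their holders include *Creld2* and *Derl3*, whose levels differed most between single libraries. Each is written 5′ to 3′ on the strand that reads as ERSE, with its position in GRCm38.p6 and that strand, and capitals mark the letters fixed in the motif.
Hspa5 site at chr2:34772025-34772043, plus strand: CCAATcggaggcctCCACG
Hsp90b1 site at chr10:86705638-86705656, minus strand: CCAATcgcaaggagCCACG
Hsp90b1 site at chr10:86705533-86705551, plus strand: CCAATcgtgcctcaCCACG
Dnajc3 site at chr14:118937827-118937845, plus strand: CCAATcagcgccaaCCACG
Creld2 site at chr15:88819520-88819538, minus strand: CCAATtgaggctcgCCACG
Pdia6 site at chr12:17266491-17266509, plus strand: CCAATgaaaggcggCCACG
Calr site at chr8:84847075-84847093, plus strand: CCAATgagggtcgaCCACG
Canx site at chr11:50325800-50325818, minus strand: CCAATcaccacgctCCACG
Syvn1 site at chr19:6046532-6046550, plus strand: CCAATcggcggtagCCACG
Derl3 site at chr10:75893242-75893260, minus strand: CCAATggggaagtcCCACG

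The full windows of *Creld2* and *Derl3* show where the element lies. Both are on the plus strand and are written in the direction of transcription, so the element, in capitals, is read here from its reverse side, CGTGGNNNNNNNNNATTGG. It begins 126 bases before the start of *Creld2* (window chr15:88819396-88819645) and 156 bases before that of *Derl3* (window chr10:75893148-75893397).
Creld2: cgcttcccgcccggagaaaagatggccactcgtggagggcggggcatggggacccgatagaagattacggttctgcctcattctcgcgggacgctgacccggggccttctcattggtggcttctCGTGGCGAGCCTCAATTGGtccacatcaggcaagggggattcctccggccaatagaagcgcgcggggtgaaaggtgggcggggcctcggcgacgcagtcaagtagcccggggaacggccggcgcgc
Derl3: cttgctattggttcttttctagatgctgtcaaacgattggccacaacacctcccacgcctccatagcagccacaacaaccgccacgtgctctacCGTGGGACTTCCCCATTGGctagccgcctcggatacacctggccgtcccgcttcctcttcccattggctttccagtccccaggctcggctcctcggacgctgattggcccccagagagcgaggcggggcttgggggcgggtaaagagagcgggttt

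The shorter ERSE-II, ATTGGNCCACG, was in 0.0304% of promoters and in 1 member, *Herpud1*. It is shown with its position, chr8:94386377-94386387 on the plus strand, as the only other stress element of this kind among the members.
Herpud1: ATTGGgCCACG
The C/EBP-ATF response element bound by ATF4, TGATGNAA, was in 4 members (*Herpud1*, *Atf3*, *Chac1* and *Asns*) and in 3.45% of promoters. TGACGTGG, the XBP1 element named UPRE, was in 0 of the 29 members and in 0.563% of promoters. A CCAAT box alone, which every ERSE contains, was in 23 members and in 33.8% of promoters. The windows of *Sdf2l1* and *Ddit3* held a CCAAT box and no other of these motifs. The search took exact letters only, in these 250 bases. A site with 1 changed letter or outside the window was not counted, so no match does not mean that a gene lacks the element.

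Across the 6 livers, the RNA of ER folding genes was highest in KPF replicate 1, intermediate in KPF replicate 3 and lowest in KPF replicate 2, while the 3 WPF livers were close to each other. Of the 31 tested members, 4 were called higher in KPF, namely *Sdf2l1*, *Creld2*, *Derl3* and *Ddit3*, and 0 were called lower. *Derl3* passed the filter only through KPF replicate 1 (a mean of 0.854 FPKM over the other 5 libraries), so its call carries no weight, which leaves 3. A call needed an unadjusted p under 0.05 and at least a 1.5-fold difference in edgeR's quasi-likelihood test over all 10866 genes. The same rule called 634 genes higher (5.83% of all tested) and 432 lower (3.98%). No gene, member or not, had a Benjamini-Hochberg adjusted p under 0.05 in this test, against 1176 genes (10.8%) at an unadjusted p under 0.05 and 156 genes at an adjusted p under 0.05 with DESeq2. Adjusted p values of the members in edgeR's quasi-likelihood test ran from 0.430 to 0.919. Without KPF replicate 1, only *Ddit3* was called higher and 0 members lower, against 4.46% and 2.66% of all genes. Without KPF replicate 2, 14 members were called higher, against 5.06% of all genes. *Derl3*, whose call carries no weight, is among the 14. The calls also changed when WPF livers were left out: *Creld2* and *Ddit3* were called without WPF replicate 2, *Ddit3* alone without WPF replicate 3, and *Herpud1*, *Derl3* and *Ddit3* without WPF replicate 4. *Ddit3* was called whichever single liver was left out, and the same 4 members were called without KPF replicate 3.

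**Figure D1:**
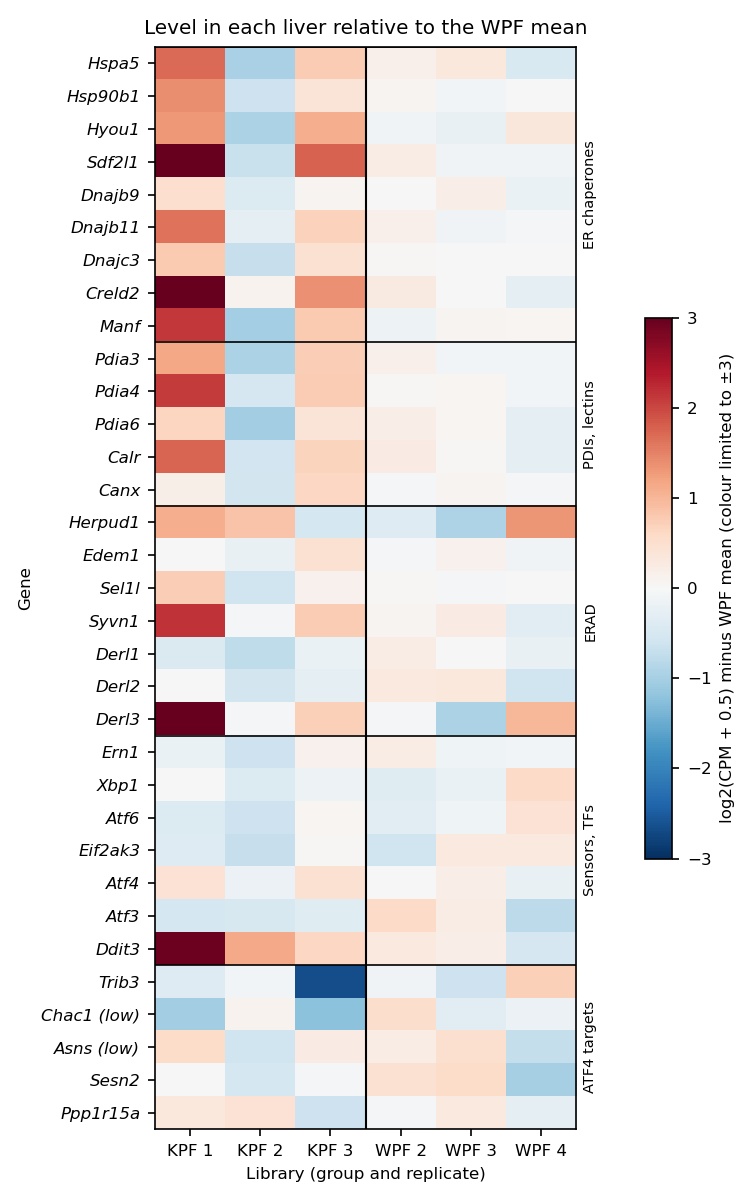
Level of each of the 33 genes (rows, grouped by role) in each of the 6 livers (columns), as log2(CPM + 0.5) minus the mean of the 3 WPF livers, with red above and blue below that mean and colour limited to 3 in either direction; "low" marks the genes under the filter. Most chaperone rows are red in KPF 1, paler red in KPF 3 and blue in KPF 2, and most rows of sensors are pale throughout.

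Values per liver are given throughout in the order KPF replicates 1, 2 and 3 and WPF replicates 2, 3 and 4. The 6 libraries held 10694496 to 14496630 counted reads. The dams are separate animals, so the p values weigh the difference between groups against the spread between animals. KPF replicate 1, highest in the ER folding genes, was the lowest library for *Mlxipl*, as for 2534 of all 10866 tested genes. The other KPF livers did not continue this order. KPF replicate 2, lowest in the folding genes, had less *Mlxipl* than KPF replicate 3. A relation between *Mlxipl* and the folding genes was not tested. Levels in CPM are read counts scaled to a common library size by TMM. *Mlxipl* was at 182, 709 and 860 CPM in the KPF livers, against 974, 1277 and 891 CPM in the WPF livers. These counts cover the whole gene, also outside the deleted part. All 7 hepatocyte markers passed the filter, and they summed to 37676 to 45256 FPKM in KPF and 52598 to 72404 FPKM in WPF. Most of each sum was *Alb*, at 27226 to 34646 FPKM in KPF and 42341 to 56567 FPKM in WPF. Of the 7 markers, 0 were called in either direction, and 4 had a log2 fold change above 0, with a median of 0.10. KPF replicate 2 stood apart by skeletal muscle genes: 4 of 4 were highest there, and they summed to 1357 FPKM, or 0.241% of all FPKM, against 3.06 to 4.5 FPKM in the other 5 libraries. In bulk liver, a change in the share of cells that express a gene cannot be told apart from a change in RNA per cell.

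The first and largest role group, 9 ER chaperones and their partners, was led by *Hspa5*, which encodes BiP, the HSP70 chaperone that binds unfolded chains and holds the 3 sensors inactive. *Hspa5* was at 1003, 159 and 525 CPM in the KPF livers, against 347, 384 and 225 CPM in the WPF livers. The highest and the lowest of the 6 values are thus both from KPF, and the groups overlap. The KPF mean was 562.3 ± 423 CPM and the WPF mean 318.6 ± 83.4 CPM (SD, n = 3 each). The log2 fold change was 0.82 (SE 0.60, 95% interval -0.57 to 2.21), with an adjusted p of 0.634 in edgeR's quasi-likelihood test. Without KPF replicate 1 it was 0.10 (SE 0.53).

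*Creld2*, an ER disulfide isomerase that is secreted under ER stress, had the largest fold change of these chaperones. It was at 630, 38.4 and 93.7 CPM in the KPF livers, against 42.9, 35.7 and 29.4 CPM in the WPF livers. KPF replicate 1 stood 6.73-fold above the next library, KPF replicate 2 was within the range of WPF, and KPF replicate 3 was above all WPF livers. The log2 fold change was 2.82 (SE 0.94, unadjusted p = 0.0184, adjusted p = 0.430 in edgeR's quasi-likelihood test). Leaving out KPF replicate 1 gave 0.87 (SE 0.40) with an unadjusted p of 0.0651, and the gene was then not called.

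*Sdf2l1*, a partner of BiP that keeps substrates soluble, was at 151, 10.8 and 60.9 CPM in the KPF livers. In WPF replicates 2, 3 and 4 it was at 20.4, 16.2 and 16.1 CPM. KPF replicates 1 and 3 were above and KPF replicate 2 below the whole WPF group. The log2 fold change of 2.08 (SE 0.77, unadjusted p = 0.0286, adjusted p = 0.430 in edgeR's quasi-likelihood test) became 1.03 (SE 0.62) without KPF replicate 1, with an unadjusted p of 0.144. At the other end of the group, *Dnajb9*, a J-domain partner of BiP and a feedback inhibitor of IRE1, was at 20.9, 10.8 and 15.3 CPM in the KPF livers, against 14.4, 16.7 and 12.5 CPM in the WPF livers. Its log2 fold change was 0.10 (SE 0.28), although its highest and lowest values fell in the same 2 livers as those of *Hspa5*.

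**Figure D2:**
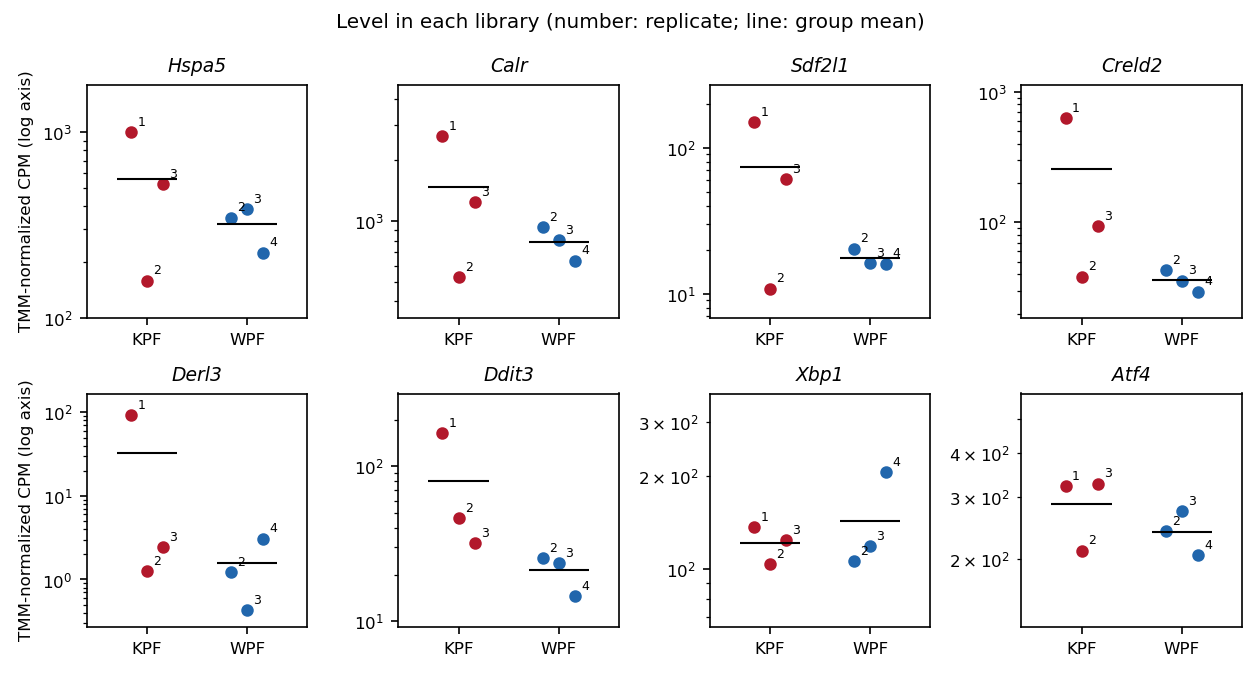
TMM-normalized CPM on a log axis, with a separate scale for each gene, of 8 genes in each KPF (red) and WPF (blue) liver, with the replicate number beside each point and the group mean as a line. KPF 1 is the highest point for Hspa5, Calr, Sdf2l1, Creld2, Derl3 and Ddit3, whereas Xbp1 is highest in WPF 4 and Atf4 in KPF 3; KPF and WPF are fully separate only for Ddit3.

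The remaining 5 members of the group were not called, with log2 fold changes from 0.32 for *Dnajc3*, which encodes an inhibitor of PERK and a J-domain partner of BiP, to 1.13 for *Manf*, a secreted ER stress factor. *Manf* was at 265, 29.5 and 104 CPM in the KPF livers, and between 54.9 and 63.9 CPM in the 3 WPF livers. *Hsp90b1* (GRP94, the HSP90 of the ER) had a log2 fold change of 0.61, *Hyou1* (GRP170, a nucleotide exchange factor of BiP) 0.76 and *Dnajb11* (ERdj3) 0.88. For *Dnajc3* the WPF livers spanned no more than 1.03-fold, from 80.2 to 82.8 CPM, and the KPF livers 2.82-fold.

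The 5 disulfide isomerases and lectin chaperones, which form and rearrange disulfide bonds or hold glycoproteins during folding, followed the same order of livers with 1 exception. *Pdia4* had the largest change: it was at 292, 48.1 and 116 CPM in the KPF livers, against 69.6, 70.3 and 63.9 CPM in the WPF livers. All 3 WPF values lie between KPF replicates 2 and 3. The log2 fold change was 1.16 (SE 0.57, adjusted p = 0.505 in edgeR's quasi-likelihood test). *Pdia6* had the smallest, 0.15 (SE 0.42), from 123, 37.8 and 103 CPM in KPF and 89.9, 82.4 and 65.5 CPM in WPF. *Calr* (calreticulin), the most abundant member per length at 885 FPKM in KPF replicate 1, had 0.89, *Pdia3* 0.55 and *Canx* (calnexin) 0.16. *Canx* is the exception, being highest in KPF replicate 3.

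Taking these 14 folding genes as one set, all 14 log2 fold changes were above 0, with a median of 0.79, while 51.4% of all tested genes were above 0 and their median was 0.02; scaled by library totals *Dnajb9* was below 0 (-0.023), and in limma on log2(FPKM + 1) *Dnajb9*, *Pdia6* and *Canx* were (-0.047, -0.11 and -0.036). For the 14 genes without KPF replicate 1, the median was 0.14 and 10 were above 0. KPF replicate 1 was the highest library for 13 of 14 (22.6% of all tested genes), KPF replicate 2 the lowest for 13 of 14 (19.9%), and both held for 12 of 14 (3.92%). *Canx* and *Creld2*, which was lowest in WPF replicate 4, were the other 2. KPF replicate 1 was at least 2-fold above the next library for 5 of the 14 and for 8 of all 31 tested members, against 1.35% of all tested genes. The 8 include *Derl3*, which passed the filter only through KPF replicate 1. The ratio of the highest to the lowest library was larger in KPF than in WPF for 14 of 14 folding genes (61.8% of all genes), with a median ratio of 4.60 in KPF and 1.24 in WPF (1.64 and 1.46 over all genes). Summed over the 14 genes, the FPKM were 2525, 452 and 1042 in KPF replicates 1, 2 and 3, and 709, 785 and 735 in WPF replicates 2, 3 and 4. These counts describe single livers, and no test was made of how 1 liver differs from the rest.

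Among the 7 ERAD genes, which recognise misfolded proteins and move them to the cytosol for degradation, the order of the folding genes was seen only in part. *Derl3*, an inducible derlin of the ERAD channel, was at 93.5, 1.26 and 2.43 CPM in the KPF livers, against 1.23, 0.43 and 3.09 CPM in the WPF livers. These are 968, 14 and 25 reads in KPF and 14, 6 and 52 reads in WPF, so the gene was counted with 52 reads or fewer outside KPF replicate 1, which stood 30.3-fold above the next library. Since it passed the filter through that library alone, its fold change is a description without a test: 4.32 on the log2 scale (SE 1.62) with all libraries and 0.20 (SE 0.81) without KPF replicate 1. The related derlins *Derl1* and *Derl2* did not share this pattern. *Derl1* was at 49.6, 39.6 and 58.4 CPM in the KPF livers, against 79.2, 67.6 and 57.7 CPM in the WPF livers, with a log2 fold change of -0.47 (SE 0.24), the smallest of the ERAD group. *Derl2* had -0.33.

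*Syvn1*, which encodes HRD1, the ubiquitin ligase of the ERAD channel, was at 476, 101 and 177 CPM in the KPF livers, against 111, 125 and 82.8 CPM in the WPF livers. Its log2 fold change was 1.24 (SE 0.54), just short of a call at an unadjusted p of 0.0525 (adjusted p = 0.464 in edgeR's quasi-likelihood test). Its partner *Sel1l* had 0.19 and *Edem1*, a lectin that picks glycoproteins for ERAD, 0.10. *Herpud1*, an ERAD scaffold that is also a target of ATF4, had another order of livers: 168, 142 and 53.7 CPM in KPF replicates 1, 2 and 3, and 59.5, 41.0 and 196 CPM in WPF replicates 2, 3 and 4. It was thus high in KPF replicates 1 and 2 and WPF replicate 4, with a log2 fold change of 0.30 (SE 0.64). The clock output gene *Dbp* was high in the same 3 livers, at 38.8, 208 and 288 CPM, and between 1.57 and 5.94 CPM in the other 3; a relation between the 2 genes was not tested. Without WPF replicate 4, *Herpud1* was called higher in KPF, at a log2 fold change of 1.26.

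Of the transcripts of the 3 sensors, none was called, and for each the groups overlapped. *Ern1* was at 37.2, 27.3 and 46.7 CPM in the KPF livers, against 49.9, 38.7 and 40.0 CPM in the WPF livers, with a log2 fold change of -0.21 (95% interval -0.79 to 0.37). *Atf6* was at 21.9, 18.8 and 30.2 CPM in the KPF livers, against 23.4, 26.8 and 39.6 CPM in the WPF livers, with -0.34 (-0.99 to 0.30). *Eif2ak3* was at 8.88, 7.08 and 12 CPM in the KPF livers, against 7.62, 14.5 and 14.7 CPM in the WPF livers, with -0.40 (-1.17 to 0.37). In KPF replicate 1, where the folding genes were highest, these 3 genes were at 0.867, 0.732 and 0.724 times the WPF mean.

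The transcription factors downstream of the sensors were likewise not called, except *Ddit3*. *Xbp1* was at 136, 103 and 124 CPM in the KPF livers, against 106, 119 and 206 CPM in the WPF livers, with a log2 fold change of -0.24 (95% interval -0.97 to 0.48). Spliced and unspliced *Xbp1* are counted together. *Atf4* was at 322, 212 and 328 CPM in the KPF livers, against 241, 273 and 205 CPM in the WPF livers, with 0.26 (-0.37 to 0.90). *Atf3*, a stress-induced repressor, was low in every liver, at 2.22, 2.33 and 2.53 CPM in KPF and 5.34, 4.06 and 1.78 CPM in WPF, and had the smallest log2 fold change of the group, -0.65 (SE 0.45).

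*Ddit3* (CHOP, a transcription factor tied to prolonged stress) was the single member whose groups did not overlap. It was at 164, 46.3 and 32.0 CPM in the KPF livers, against 25.7, 23.9 and 14.6 CPM in the WPF livers. Every KPF liver was above every WPF liver, as for 7.55% of all tested genes (0 of 31 members and 8.15% of all genes had every KPF liver below), and the exact two-sided permutation test gave p = 0.1, the smallest that 3 against 3 dams allow. The log2 fold change was 1.92 (SE 0.61, unadjusted p = 0.0144, adjusted p = 0.430 in edgeR's quasi-likelihood test), and 0.88 (SE 0.31, unadjusted p = 0.0273) without KPF replicate 1. *Ddit3* overlaps *Mars*, on the opposite strand, which held 426 to 986 reads against 246 to 1698 for *Ddit3*. It also overlaps *Gm4189*, on the opposite strand, with 8 to 32 reads. A second entry named *Ddit3*, on the same strand, held 0 reads in every library. The part of these overlaps in the *Ddit3* counts was not tested. Whether the counting used strand is not given in the sources used here. Of the order of livers seen in the folding genes, *Ddit3* kept the top place of KPF replicate 1 but not the low place of KPF replicate 2, which was 2.17 times the WPF mean.

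**Figure D3:**
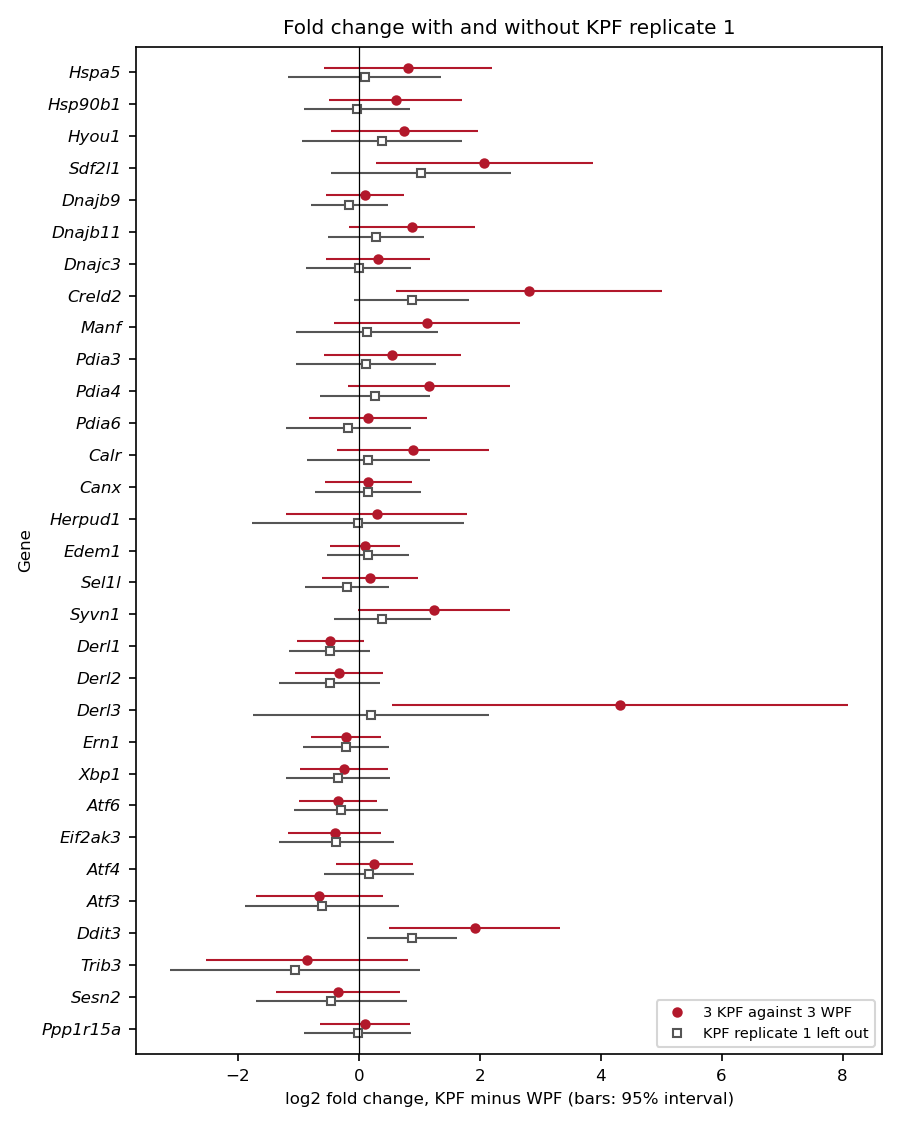
Log2 fold change of KPF over WPF for the 31 tested genes, with 95% intervals from edgeR, from all 6 livers (red circles) and without KPF replicate 1 (open squares). The intervals of Sdf2l1, Creld2, Derl3 and Ddit3 lie above 0 with all livers, and without KPF replicate 1 only that of Ddit3 does. Derl3 passed the filter through KPF replicate 1 alone.

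The targets of ATF4 and CHOP were not called in either direction. *Ppp1r15a* (GADD34), which reverses the phosphorylation of eIF2, was at 21.8, 23.7 and 11 CPM in the KPF livers, against 17, 21.4 and 14.2 CPM in the WPF livers, with a log2 fold change of 0.10 (SE 0.32). *Trib3*, a pseudokinase induced by ATF4 and CHOP, was at 5.21, 6.54 and 0.682 CPM in the KPF livers, against 6.48, 4.34 and 11.8 CPM in the WPF livers, with -0.86 (SE 0.72). Its low value in KPF replicate 3 is 0.0906 times the WPF mean. *Sesn2*, a stress-induced regulator of mTORC1, had -0.34. Under the filter, *Chac1* (a glutathione-degrading enzyme) was between 0.195 and 1.84 CPM and *Asns* (asparagine synthetase) between 0.712 and 2.41 CPM in all 6 livers. Fitted without the filter, their log2 fold changes were -1.07 (SE 0.77) and 0.01 (SE 0.60).

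By role, the median log2 fold change was 0.82 for the chaperones, 0.55 for the disulfide isomerases and lectins, 0.19 for ERAD, -0.24 for sensors and transcription factors and -0.34 for the 3 tested targets of ATF4 and CHOP. Over the 31 tested members it was 0.26, with 22 above 0. Without KPF replicate 1 it was -0.0036, with 15 above 0. The promoter elements shown above can be set beside these values. The 9 members with an ERSE match were at a median of 3.15, 0.666 and 1.55 times the WPF mean in KPF replicates 1, 2 and 3. The 18 tested members with a RefSeq promoter and no exact match in the window searched were at 1.29, 0.714 and 1.07 times. Among the holders, KPF replicate 1 ranged from 1.13 times the WPF mean for *Canx* to 59.2 times for *Derl3*, which passed the filter through that library alone. Among the others KPF replicate 1 reached 8.58 times, for *Sdf2l1*. Both sets thus hold genes that were high in KPF replicate 1 and genes that were not. Most holders are folding genes and most of the others are not, so these medians also compare roles. In KPF replicate 1, the folding genes with a promoter and no match were at 8.58 (*Sdf2l1*), 4.30 (*Pdia4*), 3.09 (*Dnajb11*), 2.23 (*Pdia3*) and 1.43 (*Dnajb9*) times the WPF mean. The folding genes with a match were at 1.13 (*Canx*) to 17.5 (*Creld2*) times.

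A wider view of the same pathways came from 6 further lists of 157 genes, of which 143 passed the filter: 2 were called higher and 4 lower, against 5.83% and 3.98% of all tested genes, with a median log2 fold change of -0.05. Among 26 other ER folding enzymes, *Pdia5*, a disulfide isomerase, was called higher, at 60.0, 83.3 and 50.9 CPM in KPF replicates 1, 2 and 3 and 32.5, 42.0 and 47.0 CPM in WPF replicates 2, 3 and 4, and *Selenof*, a selenoprotein of ER quality control, lower. Their log2 fold changes were 0.68 (SE 0.26) and -0.87 (SE 0.36). *Pdia5* was highest in KPF replicate 2, where *Pdia3*, *Pdia4* and *Pdia6* were lowest. KPF replicate 1 was the highest library for 16 of these 26 genes and KPF replicate 2 the lowest for 15.

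None of 26 further ERAD factors was called, nor at an unadjusted p under 0.05 in edgeR's test, and none of 27 further sensors and regulators. Among 23 translocon and signal peptide genes, *Sec62*, a part of the channel through which new proteins enter the ER, was called higher, at 174, 142 and 163 CPM in KPF and 112, 95.6 and 86.8 CPM in WPF (log2 fold change 0.70, SE 0.23). KPF replicate 2 was the lowest library for 18 of these 23 genes, while KPF replicate 1 was the highest for 5. Of 21 further genes linked to ATF4, 2 amino acid transporters were called lower, *Slc38a2* at -0.61 (SE 0.26) and *Slc6a9* at -1.44 (SE 0.48). Of 20 cytosolic aminoacyl-tRNA synthetases, also linked to ATF4, *Iars* was called lower at -0.67 (SE 0.25). In edgeR's test 4 of the 20 had an unadjusted p under 0.05, against 10.8% of all tested genes, and 0 of these 4 were higher. Every KPF liver was below every WPF liver for 5 of the 20 (8.15% of all tested genes) and above for 2 (7.55%). The adjusted p values of these 6 called genes in edgeR's quasi-likelihood test were from 0.430 to 0.456, and without KPF replicate 1 *Pdia5* and *Sec62* were still called while the 4 lower genes were not, and *Aldh18a1* and *Fgf21*, both of the ATF4-linked list, were then called lower in their place.

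**Figure D4:**
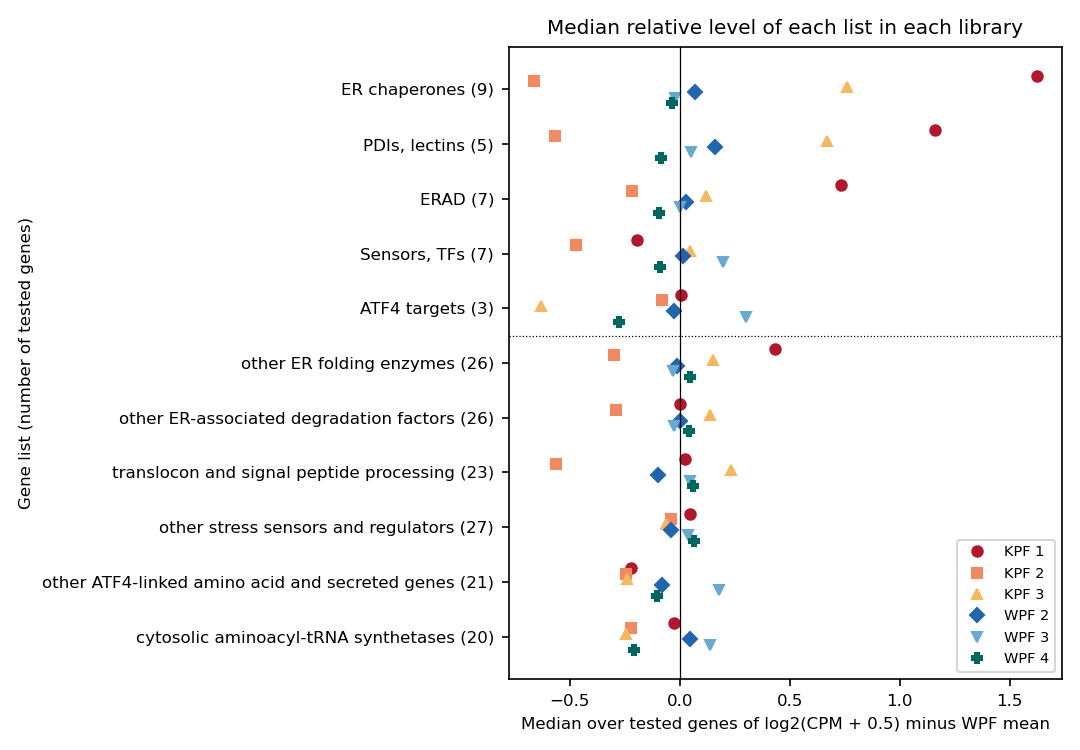
Median over the tested genes of each list (rows, number of genes in parentheses) of log2(CPM + 0.5) minus the WPF mean, for each of the 6 livers (symbols), with the 5 role groups above the dotted line and the 6 further lists below it. KPF 1 reaches 1.62 for ER chaperones and 0.43 for the other ER folding enzymes and lies near 0 for the other ERAD factors, while KPF 2 is the lowest point of the top 4 groups.

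Markers of cells with a large ER were read beside the folding genes. In KPF replicate 1, *Jchain* was at 0.11 FPKM (3 reads) and *Mzb1*, which is under the filter, at 0.08 FPKM (1 read). That was the lowest of the 6 libraries for both. *Igkc* was at 42.9 FPKM there, between 28.8 FPKM in WPF replicate 2 and 83.5 FPKM in KPF replicate 3. The 6 plasma and B cell genes summed to 50.6 FPKM in KPF replicate 1, within 50.6 to 102.8 FPKM in KPF and 37.8 to 93.6 FPKM in WPF. The 6 pancreatic acinar genes, none of which passed the filter, summed to 4.37 FPKM in KPF replicate 1, 7.47 FPKM in WPF replicate 2 and at most 1.09 FPKM in the other 4, with *Amy2a5* at 0 in all 6. Of 6 stellate and fibroblast genes, 4 were called higher in KPF, against 5.83% of all tested genes. Without KPF replicate 1, 3 were called higher, against 4.46%. *Lrat* went the other way, at a log2 fold change of -0.35, and was not called. The 6 genes summed to 17.7 to 147.6 FPKM in KPF and 11.3 to 16.7 FPKM in WPF. Of the sum in KPF replicate 2, 128.8 FPKM came from *Des* (desmin), which muscle also expresses. The 5 genes without *Des*, of which 3 were called higher with all 6 livers, summed to 34.0, 18.9 and 15.3 FPKM in KPF and 8.85, 13.7 and 14.4 FPKM in WPF. The part of the stellate and muscle genes in the levels of the folding genes was not tested.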

How the data were processed

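The table covers liver RNA of 3 KPF and 3 WPF dams. For each gene the authors deposited its raw read count beside its FPKM value, and each deposited FPKM value equals the count divided by exonic length and library total within 0.01. Per the submitters' processing notes, cutadapt 1.9.1, HISAT2 2.2.1, HTSeq 0.6.1 and DESeq2 were used with GRCm39. Gene symbols came from GENCODE M21 (52073 of 56691 IDs matched).

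Genes averaging 1 FPKM or more (10866) were kept, and their counts were tested for KPF against WPF by edgeR 4.0.16 (R 4.3.3; TMM, glmQLFit, glmQLFTest) with Benjamini-Hochberg adjustment, without covariates. Levels are TMM-normalized CPM, and relative levels use a pseudocount of 0.5. Alternatives used limma 3.58.1 on log2 FPKM, DESeq2 1.42.0, other scalings and filters, each replicate left out and the replicate number as a block. The test was tried on simulated counts. Promoters were RefSeq's for GRCm38.p6, whose positions were not joined to those of the table.

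The members and lists were chosen with earlier results of these data known. Values are given for every called member, the sensors and their factors, *Hspa5*, and the largest and smallest change per role group; in the further lists, called genes are named. *Dnajc3*, *Manf*, *Syvn1*, *Calr*, *Herpud1*, *Mlxipl*, *Atf5*, *Egr1*, *Dbp*, *Arntl* and *Nr1d1* were given values, and *Des*, *Aldh18a1* and *Fgf21* named, after their values had been seen. Replicates of a group differed beyond sampling noise (chi-square per gene of 39.6 or more in each pair). Depth limits low genes such as *Chac1*.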

Additional observations from a re-analysis of the deposited data

How the results depend on the processing

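Counts of members called higher (4, with *Derl3* among them), members called lower (0), pathway-list genes called higher (2) and lower (4), and all genes called higher (634) and lower (432) were recomputed. With library totals in place of TMM, 1 member (*Derl1*) was called lower, 1 list gene higher and 13 lower, and 371 and 716 of all genes, so 34.1% of called genes were higher against 59.5%, and the median of all genes moved from 0.02 to -0.12. With no filter on low values, 8 members were called higher and 3 had an adjusted p under 0.05, with 14 list genes lower and 1576 and 910 of all genes. Where only genes averaging 5 FPKM or more were fitted, 1 list gene was called lower, and 255 and 205 of all genes. DESeq2 called 6 members higher (*Sdf2l1*, *Dnajb11*, *Creld2*, *Pdia4*, *Syvn1* and *Ddit3*), 1 with an adjusted p under 0.05, and 9 list genes lower (*Derl3* had no p). limma on log2(FPKM + 1) called 1 member higher, 0 list genes higher, 10 lower and 238 of all genes higher (30.1% of called genes). With a pseudocount of 0.1 it called 1 member higher, 1 lower, 0 list genes higher, 13 lower, and 257 and 681 of all genes (27.4% higher). The robust fit in edgeR, chosen after seeing the data, called 2 members (*Creld2* and *Ddit3*).

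Leaving out each replicate gave 1 to 14 members higher, with *Derl3* among the 14, and 0 to 2 lower (*Atf3* and *Sesn2*, without WPF replicate 4). The member median ran from -0.0036 to 0.46. Of the list genes, 0 to 7 were called higher and 1 to 13 lower, and of all genes 324 to 910 and 246 to 709.

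The replicate block compares KPF replicates 2 and 3 with WPF replicates 2 and 3, since numbers 1 and 4 occur in 1 group only. It called 0 members higher, 2 lower (*Derl2* and *Sesn2*), 4 list genes higher and 11 lower, with a member median of -0.097. The correlation of deviations of same-numbered libraries over all tested genes was 0.045 and -0.017. What samples of the same number share beyond the number is not given in the sources used here.

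The sign of 40 of 489 member fold changes reversed. With library totals, values were -0.023 for *Dnajb9*, -0.040 for *Edem1* and -0.0047 for *Ppp1r15a*. limma with a pseudocount of 1 gave -0.047 for *Dnajb9*, -0.11 for *Pdia6*, -0.036 for *Canx*, -0.043 for *Edem1*, -0.031 for *Sel1l* and -0.055 for *Ppp1r15a*. limma with a pseudocount of 0.1 gave -0.059 for *Dnajb9*, -0.13 for *Pdia6*, -0.042 for *Canx*, -0.046 for *Edem1*, -0.038 for *Sel1l* and -0.075 for *Ppp1r15a*. With the replicate block, values were -0.34 for *Hspa5*, -0.11 for *Hsp90b1*, -0.27 for *Dnajb9*, -0.12 for *Dnajc3*, -0.090 for *Manf*, -0.15 for *Pdia3*, -0.46 for *Pdia6*, -0.10 for *Calr*, -0.24 for *Sel1l*, 0.012 for *Xbp1* and -0.23 for *Ppp1r15a*. Leaving out each replicate in turn gave -0.029 to 0.97 for *Hsp90b1*, -0.16 to 0.30 for *Dnajb9*, -0.0036 to 0.63 for *Dnajc3*, -0.17 to 0.51 for *Pdia6*, -0.074 to 1.26 for *Herpud1*, -0.20 to 0.46 for *Sel1l*, -0.10 to 0.38 for *Ppp1r15a*, -0.15 to 0.41 for *Canx*, -0.11 to 0.23 for *Edem1* and -0.42 to 0.10 for *Xbp1*.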

Other observations

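Heat shock, immediate early and clock genes were read as context. Of 13 tested cytosolic and mitochondrial heat shock chaperones, 2 were called higher in KPF, with edgeR's unadjusted p: *Hsph1*, at 37.6, 32.6 and 28.2 CPM in KPF replicates 1, 2 and 3 and 12.2, 26.0 and 8.13 CPM in WPF replicates 2, 3 and 4, and *Hsp90aa1*, at 217, 49.6 and 175 CPM and 56.7, 83.9 and 49.0 CPM. Without KPF replicate 1 neither was called: the log2 fold change of *Hsph1* went from 1.09 to 0.98 (unadjusted p = 0.0773 in edgeR's test), with every KPF liver above every WPF liver, and that of *Hsp90aa1* from 1.22 to 0.83 (unadjusted p = 0.162 in edgeR's test). KPF replicate 1 was the highest library for 7 of the 13, as for 22.6% of all tested genes, KPF replicate 2 the lowest for 0 and WPF replicate 4 the lowest for 8. Of 11 tested immediate early genes, 1 was called higher in KPF, *Btg2*, and 0 lower. The log2 fold change of *Btg2* was 0.96 (SE 0.35), and it was still called without KPF replicate 1. KPF replicate 1 was the highest library for 3 of the 11 (22.6% of all tested genes) and the lowest for 2. *Egr1*, 1 of these 3 and not called, was at 251 CPM in KPF replicate 1 and between 12.5 and 60.6 CPM in the other 5 libraries. *Atf5*, a factor of the mitochondrial stress response from the list of further stress regulators, was at 691, 83.5 and 361 CPM in KPF and 567, 461 and 247 CPM in WPF. KPF replicates 1 and 2 were its highest and lowest libraries, and its log2 fold change was -0.17 (SE 0.68). Its list did not follow this order. Of the 27 tested genes of the list, KPF replicate 1 was the highest library for 9 (22.6% of all tested genes) and the lowest for 6. KPF replicate 2 was the lowest for 5 (19.9% of all tested genes). Of 15 clock genes, 0 were called by edgeR, and 0 had an unadjusted p under 0.05, while single livers of both groups stood far apart. *Arntl* was at 2.41, 1.08 and 26.6 CPM in KPF and 21.2, 31.3 and 1.48 CPM in WPF, low in KPF replicates 1 and 2 and WPF replicate 4. *Nr1d1* was at 31.4, 80.1 and 18 CPM in KPF and 12.8, 4.98 and 151 CPM in WPF, and *Dbp* spanned 184-fold among the WPF livers.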
